A study of Mus musculus with 4 samples.

Results

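The replication-dependent histone genes were examined for trimethylation of lysine 4 of histone H3 (H3K4me3), which marks the starts of active genes, and of lysine 9 (H3K9me3), which marks silenced chromatin. The 74 genes were taken from a RefSeq table of 49939 genes by their symbol, H1f, H2ac, H2bc, H3c or H4c followed by digits (68 genes), or by an older name beginning with Hist1h to Hist4h (6 more: H2bu2, H2bu1-ps, H2aw, H4bc24, H2af-ps2 and H4f16). H4bc24 is listed under the older name of an H2B gene and was counted as H2B. A gene counted as marked where a deposited peak lay on it or within 1000 bp of an end. Near these genes lay 70 of 31398 H3K4me3 peaks of the wild type, 67 of 28505 of the knockout, and 2 each of 19279 and 17369 H3K9me3 peaks. The cells were cultured thioglycollate-elicited peritoneal macrophages of C57BL/6 mice aged 8 weeks, either wild type or Sun-/-, here called Sun knockout. Each of the 2 marks was mapped by chromatin immunoprecipitation and sequencing in 1 library per genotype, 4 libraries in all. The labels name neither the gene that Sun stands for nor the number of mice pooled, and macrophages elicited and cultured in this way may not show the state of resident cells. With 1 library per group no difference has a replicate check, no test between genotypes was run, and every interval given is a 95% interval that covers counting error only.

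Replication-dependent histone genes supply the core histones H2A, H2B, H3 and H4 and the linker histone H1 that package newly copied DNA. They lie in clusters, have no introns, and their messages end in a stem-loop instead of a poly(A) tail. Many H2A and H2B genes are arranged head to head and share the DNA between their starts. Transcription in S phase is coordinated by NPAT in nuclear bodies at the clusters, with HINFP acting at H4 promoters, OCT1 at the octamer of H2B promoters and NF-Y at CCAAT boxes.

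The label fits most members but not all. H1f0 and H1f10 encode linker histones made outside S phase, and H1f6, H1f7, H1f8, H2ac1 and H2bc1 are germline genes. The largest cluster, on chr13, holds 55 members from 21715711 to 23934913 (build mm10, GRCm38.p6), followed by 10 members on chr3 from 96219885 to 96270192 and 3 on chr11 from 58948911 to 58955192. The remaining 6 lie elsewhere: H2af-ps2 far from the cluster on chr13, H1f0 and H1f7 on chr15, and H1f8, H1f10 and H4f16 on chr6. The members are short, with a median length of 494.5 bp, and 63 of the 74 are shorter than 1000 bp.

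The DNA between divergent H2A and H2B starts is shown first, because H3K4me3 peaks left a gap over this DNA at most of these pairs. Promoter sequences came from RefSeq on GRCm38.p6, and 66 of the 74 members had one. H2bu1-ps, H4c14, H2bc4, H3c1, H2ac14, H2af-ps2, H3c7 and H2bc21 had none. In the following sequences, read on the plus strand from the base after one start to the base before the other, capitals mark CCAAT or its reverse complement ATTGG, the octamer ATTTGCAT or its 1-base variant ATTTGAAT on either strand, and TATAAA on either strand.
H2bc7 to H2ac7, chr13:23574208-23574380: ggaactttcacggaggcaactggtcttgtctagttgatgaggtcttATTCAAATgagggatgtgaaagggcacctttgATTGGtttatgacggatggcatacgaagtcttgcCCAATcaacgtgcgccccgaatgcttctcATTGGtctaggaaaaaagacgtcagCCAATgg
H2ac8 to H2bc8, chr13:23571221-23571399: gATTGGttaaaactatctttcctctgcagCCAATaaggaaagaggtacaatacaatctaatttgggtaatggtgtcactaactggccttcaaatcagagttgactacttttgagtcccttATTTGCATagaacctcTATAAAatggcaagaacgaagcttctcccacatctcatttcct
H2bc23 to H2ac23, chr13:21810200-21810366: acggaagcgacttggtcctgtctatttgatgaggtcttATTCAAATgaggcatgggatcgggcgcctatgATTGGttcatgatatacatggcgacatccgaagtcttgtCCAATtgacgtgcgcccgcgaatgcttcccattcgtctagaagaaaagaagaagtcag
H2ac12 to H2bc12, chr13:22035644-22035820: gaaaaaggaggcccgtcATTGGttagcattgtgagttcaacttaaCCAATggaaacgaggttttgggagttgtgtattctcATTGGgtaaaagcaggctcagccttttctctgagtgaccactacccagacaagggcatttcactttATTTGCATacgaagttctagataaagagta
H2ac11 to H2bc11, chr13:22042950-22043197: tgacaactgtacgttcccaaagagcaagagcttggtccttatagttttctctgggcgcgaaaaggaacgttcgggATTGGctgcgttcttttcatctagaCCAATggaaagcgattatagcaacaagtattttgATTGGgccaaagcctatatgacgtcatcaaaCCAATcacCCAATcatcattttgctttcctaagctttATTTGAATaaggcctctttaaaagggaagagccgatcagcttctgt
These stretches run from 167 to 248 bases and hold 2 to 5 CCAAT matches each, on either strand. H2ac12 with H2bc12 and H2ac8 with H2bc8 hold the octamer itself, and the other 3 pairs shown hold the variant. The variant was added to the search after the sequences had been seen. Of the pairs with a sequence that are not shown, H2ac22 with H2bc22 holds the variant. H2bc13 with H2ac13 and H2ac15 with H2bc15 hold neither.

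The promoters of H1 and H4 genes carry further motifs. The sequences below end at the base before the gene start and read in the direction of the gene, with capitals marking GGTCCG, the core of the H4 element, or AAACACA, the H1 box.
H4c4, chr13:23581468-23581567, plus strand: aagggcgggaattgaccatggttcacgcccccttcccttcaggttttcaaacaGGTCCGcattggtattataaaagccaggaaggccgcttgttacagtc
H4c6, chr13:23551669-23551768, minus strand: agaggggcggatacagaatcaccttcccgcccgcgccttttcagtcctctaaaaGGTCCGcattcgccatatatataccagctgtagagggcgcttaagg
H1f3, chr13:23554892-23555031, plus strand: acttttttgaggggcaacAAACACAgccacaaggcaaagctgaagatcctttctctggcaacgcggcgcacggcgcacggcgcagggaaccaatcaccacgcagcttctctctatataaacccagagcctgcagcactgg
H1f4, chr13:23622559-23622698, minus strand: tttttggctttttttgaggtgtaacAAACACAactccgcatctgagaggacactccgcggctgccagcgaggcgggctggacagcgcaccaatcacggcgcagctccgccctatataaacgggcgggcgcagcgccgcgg
Over the 250 bases before the start, on both strands, CCAAT was found at all 18 clustered H2A and all 17 clustered H2B promoters, at 6 of 6 H1, 8 of 10 H3 and 3 of 11 H4 promoters, and at 33.8% of the 32783 other promoters. At least 2 matches were present at 34 of 35 H2A and H2B promoters and at 9.97% of the others. The octamer was found at 7 of 18 H2A and 7 of 17 H2B promoters against 1.56% of the others, and its variant at 6 and 8 against 1.08%. GGTCCG was found at 8 of 11 H4 promoters against 6.70% of the others, AAACACA at 5 of 6 clustered H1 promoters against 6.23%, and TATAAA at 29 of 62 clustered members against 12.3%. H2A and H2B partners share this DNA, so their promoters are not separate observations, and a match of letters is not a binding site.

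Nearly every histone gene was marked by H3K4me3 in both genotypes. A peak lay at 71 of the 74 members in wild type and knockout alike, beside 67.3% of all 21883 protein-coding genes. None was marked in the wild type alone, beside 2.93%, although H4c17 had a peak on the gene itself in the wild type only. Of the 1515 other protein-coding genes that are also shorter than 1000 bp, 54 (3.56%) were marked in both. On chr13 54 of 55 members were marked in both genotypes, on chr3 10 of 10 and on chr11 3 of 3. The exceptions were germline linker histone genes. H1f6, the testis H1, had a weak peak in the knockout alone, with 34 tags and a score of 59.19, and none in the wild type (background for peaks in the knockout alone, 1.43% of protein-coding genes). H1f7 and H1f8, of spermatids and oocytes, had no H3K4me3 peak in either library. The testis gene H2bc1 did have a peak, with 53 wild-type and 35 knockout tags. These were the fewest tags at any marked member in the wild type, though the score of 203.9 was not the lowest. That peak did not reach the neighbouring testis gene H2ac1, which counted as marked by distance alone in both libraries. In bulk chromatin, a mark on fewer cells and less of the mark per cell cannot be told apart.

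**Figure D1:**
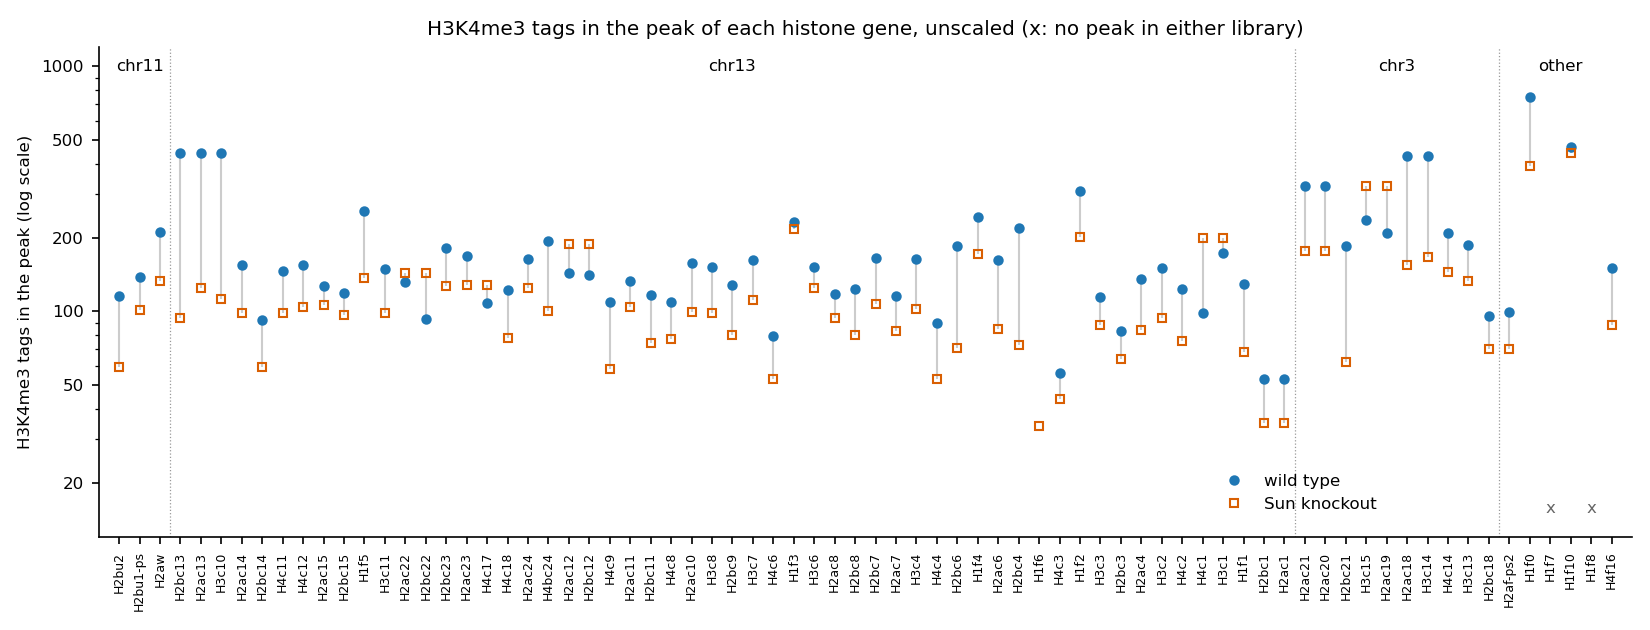
Unscaled H3K4me3 tags (log axis) in the peak of each of the 74 members, ordered by position within chr11, chr13, chr3 and elsewhere, with filled circles for the wild type and open squares for the Sun knockout, 1 library each. Genes that share a peak show the same value. Most clustered members lie between 50 and 500 tags, H1f6 has a knockout value alone, and H1f7 and H1f8 have none.

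By largest overlap, most histone genes had a peak of their own. Each gene was assigned the nearby peak that overlapped it most, or without overlap the one with most tags. The 71 marked members of the wild type had 66 different peaks by this rule. Of these 62 belonged to 1 gene alone, and 4 were shared by 9 genes. In the knockout 65 peaks served 72 members, 58 of them for 1 gene alone and 7 shared by 14 genes. By distance, peaks were more often shared. Of the 70 wild-type peaks near members, 24 lay within 1000 bp of 1 member, 39 of 2 and 7 of 3. In the knockout these counts were 24, 36 and 7 of 67. At most 3 members lay near any wild-type peak, and no peak spanned a cluster. The assigned peak covered at least 90% of the gene at 62 of 71 wild-type members and 60 of 72 knockout members.

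The peaks were narrow and dense. Wild-type peaks near members had a median width of 1003 bp and a median of 143 tags per kb, against 1220 bp and 103 tags per kb at all protein-coding genes. In the knockout the medians were 802 bp and 113 tags per kb, against 1151 bp and 88.6. Among the peaks assigned to genes, the wild-type median width was 901 bp on chr13, 1650 bp on chr3, 1180 bp on chr11 and 1880.5 bp elsewhere. Median tags per peak near members were 144.5 against 134 in the wild type, but 98 against 109 in the knockout. The fold enrichment given by the authors differed less, 7.89 against 7.66 for wild-type peaks and 7.59 against 7.38 for knockout peaks. The 23941 wild-type peaks at protein-coding genes include those anywhere inside genes, whose median length was 17170 bp, so the sets compared are unlike. Whether this bears on width or density was not tested.

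H3 genes carried the densest peaks and H4 genes the least dense, in both libraries. Over clustered members, with each peak taken once per family, the median in the wild type was 181 tags per kb at H3, 162 at H2A, 146 at the linker histone H1, 129 at H2B and 119 at H4. The knockout gave the same order, with 144 at H3, 128 at H2A, 115 at H1, 102 at H2B and 92.5 at H4. Among the 12 H3 peaks the wild-type values ran from 134 to 208 tags per kb, and among the 12 H4 peaks from 95.9 to 135, so these families overlapped only at their edges. In the knockout H3 ran from 99.6 to 205 and H4 from 67.7 to 132, a wider overlap. The position of H1 in this order was less settled, since it moved to the front of the knockout order, at 146 tags per kb, when peaks with a score below 100 were left out. By tags per peak H1 came first, with a wild-type median of 242 against 162.5 at H3, 156 at H2A, 128 at H2B and 109 at H4. Knockout medians were 154 at H1, 115 at H2A, 111.5 at H3, 80 at H2B and 77.5 at H4. H3 therefore led by density alone, with median peak widths of 898 and 810.5 bp against 1251 and 1218.5 bp at H1. H4 was lowest by either measure. H4 genes are also the shortest, with a median of 405.5 bp against 502 bp for H3, and whether length bears on the density was not tested. H2A and H2B share promoters, and in the 8 head-to-head pairs with separate wild-type peaks the H2A peak was the denser at 6. H2ac7, for example, had 224 tags per kb and H2bc7 143, but H2ac7 had fewer tags, 115 over 514 bp against 165 over 1151 bp. By tags the H2A peak was the stronger at 4 of the 8, so this direction depends on the measure. In the knockout the H2A peak was the denser at 6 of 7 such pairs and had more tags at 6.

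**Figure D2:**
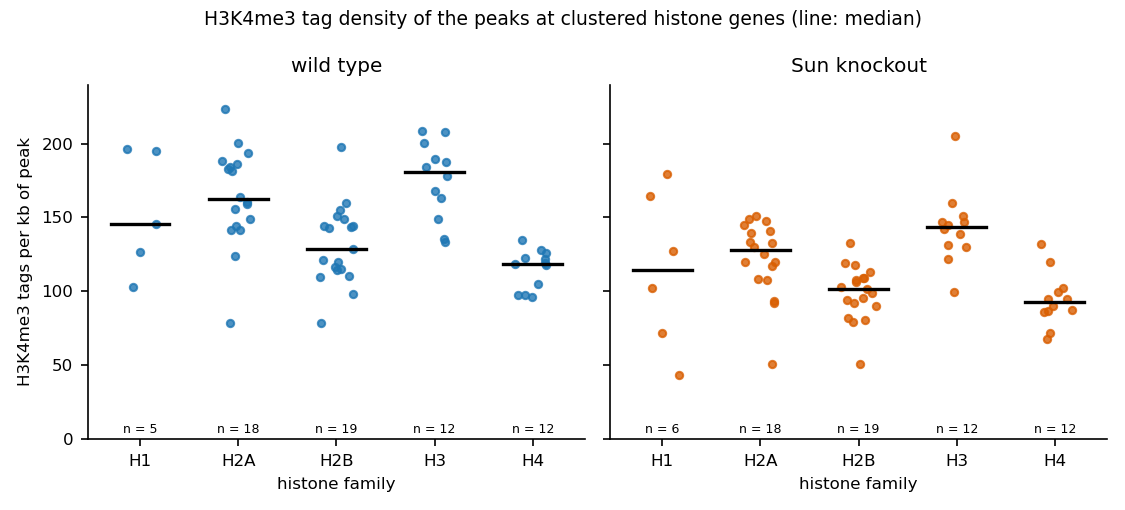
H3K4me3 tags per kb of peak at clustered members, by histone family, in the wild-type and the Sun knockout library, with a point for each peak and a line at the median. H3 has the highest median (181 and 144) and H4 the lowest (119 and 92.5) in both libraries.

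A gap in H3K4me3 lay just before the start of the histone genes. Among 61 marked, clustered, protein-coding members with a known start, a wild-type peak covered the position 300 bp after the start at 60 (98.4%), the start itself at 50 (82.0%), and the position 100 bp before it at 14 (23.0%). The knockout showed the same shape, with 95.1% at 300 bp after the start and 27.9% at 100 bp before. Other marked protein-coding genes, 14960 in number, had a peak 100 bp before the start at 70.3% for the wild-type library and 64.0% for the other. Short genes did not share the dip, with 33 of 49 other genes under 1000 bp covered at that position by wild-type peaks (67.3%) and 26 of 49 by knockout peaks (53.1%). Farther upstream the coverage of members was high again, with 37 of 61 covered at 300 bp before the start in the wild type.

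**Figure D3:**
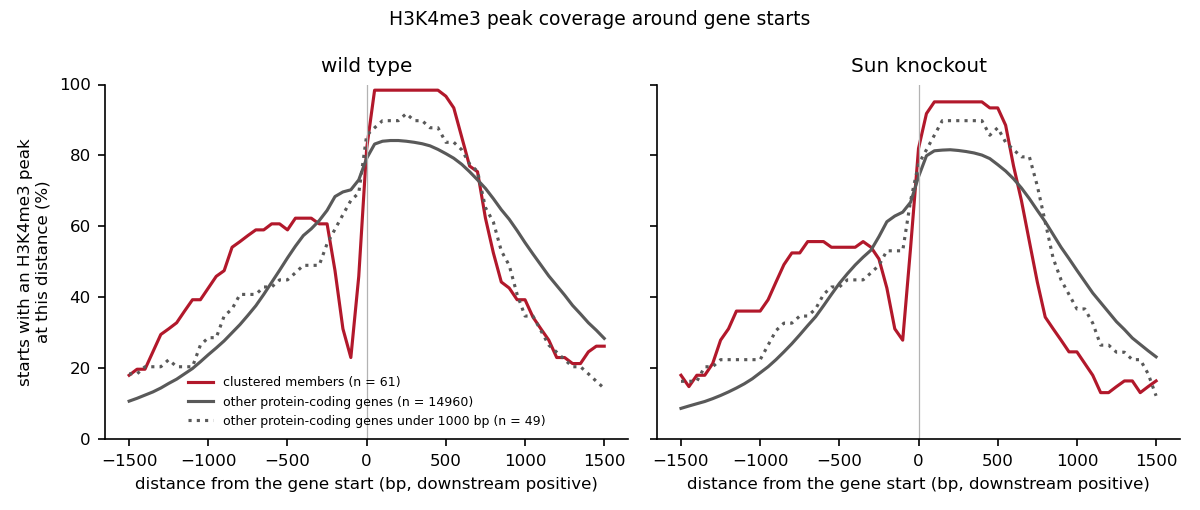
Share of gene starts (in percent) that have an H3K4me3 peak at each distance from the start, in steps of 50 bp, for 61 clustered histone genes, 14960 other marked protein-coding genes and 49 of these under 1000 bp. The histone genes drop to 23.0% (wild type) and 27.9% (knockout) at 100 bp before the start, where the other genes stand at 70.3% and 64.0%.

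The dip was deepest at H2A and H2B genes. At 100 bp before the start a wild-type peak was present at 2 of 18 H2A, 2 of 17 H2B, 2 of 5 H1, 4 of 10 H3 and 4 of 11 H4 genes. Of the 61 starts, 18 belong to divergent H2A and H2B pairs. Partners share the DNA between their starts, so their counts are not separate observations. At 300 bp before the start, 14 of 18 H2A and 14 of 17 H2B genes were covered again, but 1 of 5 H1, 3 of 10 H3 and 5 of 11 H4 genes. At the 43 members outside the divergent pairs, wild-type peaks covered 12 (27.9%) at 100 bp and 19 (44.2%) at 300 bp before the start. Knockout peaks covered 13 (30.2%) and 15 (34.9%) there, so coverage was low before these starts with little return upstream. At H1 and H3 genes fewer starts were covered at 300 bp than at 100 bp before the start, in either library.

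Divergent H2A and H2B genes had separate peaks with an unmarked stretch between them. There were 10 such pairs with starts 164 to 281 bp apart, all on chr13, and 9 had a peak 200 bp inside each gene. A gap between the peaks lay over the shared promoter at 8 of these 9 pairs for wild-type peaks and at 7 of 9 for knockout peaks. At other divergent protein-coding pairs with starts at most 500 bp apart, wild-type peaks left a gap at 150 of 565 (26.5%), and knockout peaks at 167 of 512 (32.6%). Other pairs with starts as far apart as in the histone pairs had a gap more often, at 46 of 114 (40.4%) and 57 of 106 (53.8%). Requiring the tags within 5000 bp to lie in the range of the histone pairs as well left these shares at 40.7% and 55.8%.

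The gaps were short, 119 to 182 bp in the wild type with a median of 161.5 bp, and 61 to 206 bp in the knockout with a median of 145 bp. Between H2bc7 and H2ac7, whose sequence is given above, the wild-type gap was 182 bp and the knockout gap 61 bp. At H2ac8 with H2bc8 it was 175 and 206 bp, and at H2ac11 with H2bc11 154 and 181 bp. The gap was therefore wider in the knockout at some pairs and narrower at others. For the 7 gapped pairs with a sequence, 22 of 23 CCAAT matches lay outside the wild-type peaks, as did both octamers and 3 of 4 variant octamers, beside 72.3% of all bases between these starts. In the knockout, with 6 such pairs, 18 of 20 CCAAT matches lay outside the peaks, beside 67.8% of the bases. The boundaries are those of the peak caller, which joins or splits neighbouring peaks.

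The pairs without a gap were not the same in both libraries. H2bc13 and H2ac13 lay, together with H3c10, under a single wild-type peak of 2982 bp and 444 tags (chromosome 13, 21715408 to 21718389), while the knockout had 3 peaks there with 94, 125 and 112 tags. The reverse held at H2ac22 with H2bc22, under a single knockout peak of 144 tags against wild-type peaks of 132 and 93, and at H2ac12 with H2bc12, with 189 tags in the knockout against 143 and 141. H2ac1 with H2bc1 had a peak on one side only in both libraries.

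**Figure D4:**
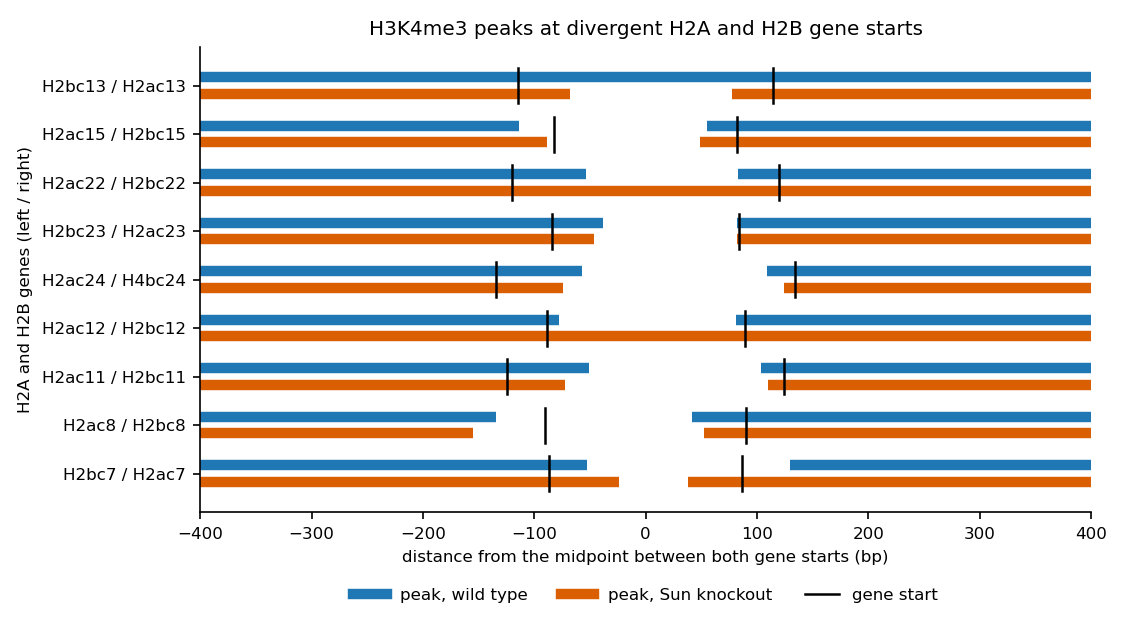
H3K4me3 peaks (bars) around the midpoint between the starts of 9 head-to-head H2A and H2B gene pairs, in bp, for the wild type and the Sun knockout, with vertical ticks at the gene starts. A gap of 61 to 206 bp lies at the midpoint in 8 wild-type and 7 knockout rows, and the wild-type bar is unbroken at H2bc13 / H2ac13, the knockout bar at H2ac22 / H2bc22 and H2ac12 / H2bc12.

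The chr13 cluster held the bulk of the tags. Its members' peaks had 7783 wild-type and 5095 knockout tags over 54713 and 44978 bp. For comparison between libraries, log2 ratios of knockout over wild type were centred on the median of 17114 peak pairs of the whole genome. On that scale summed tags at chr13 stood at -0.13 (interval -0.18 to -0.08), but tags per kb of covered length at 0.01 (-0.04 to 0.06), because the peaks covered 0.822 times the wild-type length. All peaks at protein-coding genes together stood at -0.03 for tags and 0.05 for tags per kb, with 0.859 times the length. The 3 larger blocks of the cluster were alike: -0.14 (-0.22 to -0.05) for the 19 genes from H2bc13 to H4bc24, -0.12 (-0.30 to 0.06) for the 5 from H2ac12 to H2bc11, and -0.13 (-0.20 to -0.06) for the 29 from H4c8 to H1f1.

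At the chr3 cluster the 10 members had 1968 wild-type and 1232 knockout tags. The centred log2 ratio was -0.20 for tags (-0.30 to -0.09) and 0.15 for tags per kb (0.05 to 0.26), with 0.711 times the wild-type length covered. The strongest wild-type peak, at H2ac18 and H3c14, held 430 tags, where the knockout had 2 peaks of 154 and 167 tags. The converse was found at H3c15 and H2ac19, with a single knockout peak of 324 tags against 235 and 208. A peak at H2ac21 and H2ac20 held 325 and 177 tags. Direction on chr3 therefore changed with the measure, tags or tags per kb.

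The 3 chr11 genes lie side by side. H2bu2, an H2B gene, had 116 wild-type and 59 knockout tags, H2bu1-ps had 138 and 101, and H2aw, an H2A gene, had 211 and 133. Summed, these gave 465 and 293 tags and a centred log2 ratio of -0.19 (-0.40 to 0.03) for tags and -0.13 (-0.34 to 0.09) for tags per kb, intervals that include 0.

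Peak by peak, densities in both genotypes lay close together. Among peaks near members, 51 could be paired with a single peak of the other library. Their centred log2 ratio of tags per kb had a median of -0.05 and ran from -0.62 to 0.80, beside a median of 0 over all pairs. Scaling to filtered tags instead shifts every such ratio by -0.19. None of the 51 reached a 2-fold difference in either direction, beside 0.0409% of all pairs higher and 0.0117% lower in the knockout. Unscaled tags were fewer in the knockout at 51 of 51 pairs, beside 91.0% of all pairs, and the peak was narrower at 36 of 51, beside 67.5%. The interval lay above 0 at 5 of the 51 (9.80%, beside 8.73% of all pairs) and below 0 at 1 (1.96%, beside 7.26%).

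The largest density ratios belonged to peaks that were narrower in the knockout. At H4c8 the peak had 109 wild-type tags over 1137 bp and 77 knockout tags over 584 bp, a centred log2 ratio of 0.80 (0.36 to 1.23) for tags per kb and -0.02 for tags. H1f2, a linker histone gene, had 310 tags over 2126 bp and 202 over 1226 bp, with 0.52 (0.25 to 0.78) and -0.14. The peak at the H3 gene H3c4 had 163 and 102 tags, with 0.46 and -0.20. H4c12 had 154 and 104 tags, with 0.41 (0.03 to 0.77) and -0.09. For these 4 genes the ratio of tags lay between -0.20 and -0.02.

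At the low end stood H2bc11, with 117 wild-type tags over 591 bp and 74 knockout tags over 728 bp, a ratio of -0.62 (-1.06 to -0.19) for tags per kb and -0.18 for tags. H4c9 had 109 and 58 tags, with -0.47 (-0.96 to 0.00) and -0.43. H4c4, whose promoter is shown above, had 90 and 53 tags, with -0.47 (-0.98 to 0.04) and -0.29. Both H4 genes had a low ratio on either measure, with intervals that reach 0.

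**Figure D5:**
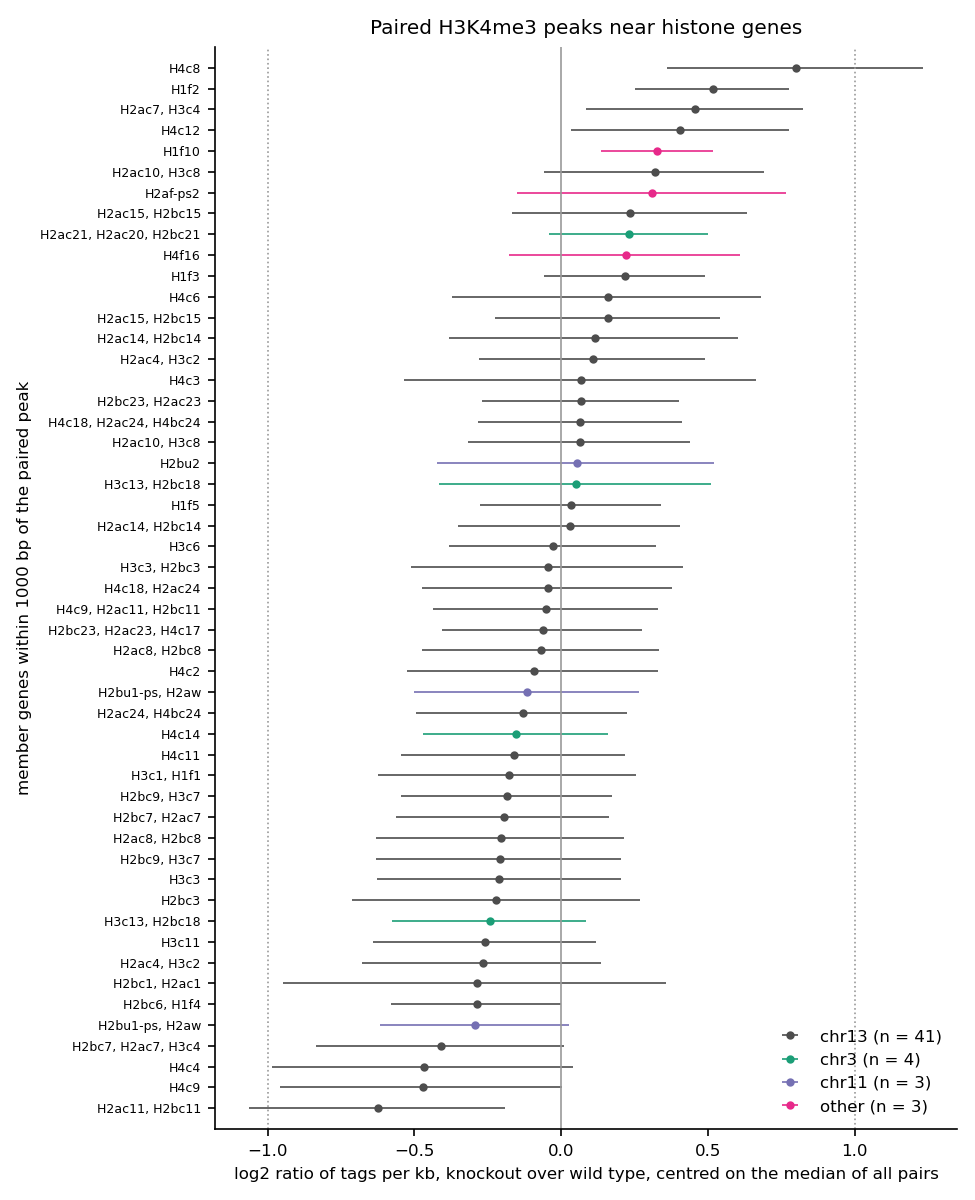
Centred log2 ratio of H3K4me3 tags per kb, knockout over wild type, for the 51 paired peaks near members, with 95% counting intervals and colours for the clusters, and dotted lines at 2-fold. The values run from -0.62 at H2bc11 to 0.80 at H4c8, and no point lies beyond 2-fold.

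On chr3, on chr11 and elsewhere only 4, 3 and 3 pairs could be formed, too few to compare their spread with that of the 41 on chr13. The 4 chr3 pairs ran from -0.24, at the peak of H3c13, to 0.23, at the peak of H2ac21 and H2ac20, and the 3 chr11 pairs from -0.29 at H2aw to 0.05 at H2bu2. Both upper ends changed sign on tags, to -0.40 (-0.67 to -0.13) at H2ac21 and H2ac20 and to -0.50 (-0.97 to -0.03) at H2bu2. Outside the clusters H1f10, the replacement linker histone, had the strongest paired peak, with 467 and 441 tags and a ratio of 0.33 (0.14 to 0.52), or 0.40 for tags. H2af-ps2 had 99 and 70 tags with a ratio of 0.31 (-0.02 for tags), and H4f16 had 150 and 88 tags with 0.22 (-0.29 for tags). H1f0, a linker histone of resting cells, had 748 wild-type tags in a single peak of 4712 bp and 2 knockout peaks of 391 and 117 tags, so it could not be paired.

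Few peaks near members lacked a counterpart in the other library. In the wild type 4 of 70 had none, beside 28.1% of all wild-type peaks, and in the knockout 1 of 67, beside 19.8%. The shares over all peaks were not matched for peak strength or for distance to genes. The 4 held 20 to 108 tags. They lay at H4c17, near H2ac23 (108 tags), at H4c14 (95), between H2bc6 and H1f4 (52) and at H2bc4 (20). The first covered 90.4% of H4c17, whose only nearby knockout peak lay off the gene, on H2ac23. The others lay beside stronger peaks. The one in the knockout was that of H1f6.

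Other protein-coding genes within the span of the chr13 cluster were mostly unmarked. The span includes long stretches without members, the longest from 22043658 to 23531044. Within the chr13 span lie 50 other protein-coding genes, of which 7 had an H3K4me3 peak in both genotypes, beside 67.3% of all protein-coding genes, and 43 in neither. The 7 were Zfp184, Pom121l2, Prss16, Zfp322a, Abt1, Btn1a1 and Hfe. The span holds 199 other genes of any kind, noncoding ones and pseudogenes included. Of these 42 were marked in both genotypes, 19 by a wild-type peak alone and 2 by a knockout peak alone. No such share over all genes of any kind is given here for comparison. The histone genes H2bc23 and H4bc24 have identical promoters over 300 bases, and histone coding sequences are close copies of each other. How tags that match several copies were placed is not given in the sources used here, so the division of tags among such genes is uncertain.

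Few of these genes had an H3K9me3 peak. None of the 55 members on chr13 and none of the 10 on chr3 had an H3K9me3 peak in either genotype, while 16.9% of protein-coding genes had one in both, and 8.74% had a wild-type peak alone and 11.2% a knockout peak alone. Short genes rarely had one in any case, with 8 of 1515 others (0.528%) marked in both. The 3 members with a peak lay outside those clusters. H1f10 had one in both genotypes, with 39 and 34 tags, inside its H3K4me3 peak. H1f7 had 16 tags in the wild type alone, without H3K4me3, and H2bu2 had 21 tags in the knockout alone, overlapping its H3K4me3 peak. These peaks are weak, with scores of 58.42 to 93.85.

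Genes that regulate histone supply were marked throughout. All 28 members of a list of histone transcription, processing and chaperone genes had H3K4me3 in both genotypes, beside 67.3% of all protein-coding genes. Their 28 paired peaks had a median ratio of -0.05 (12 above and 16 below 0), with none at 2-fold. Pou2f1, which encodes OCT1, had the highest ratio at 0.33 (0.14 to 0.52), with 533 and 388 tags. For tags it stood at 0.02. Next came Lsm10, of the histone pre-mRNA processing particle, at 0.23, Zfp473, its zinc finger partner, at 0.20 and Cdk2, the S-phase kinase, at 0.18, with intervals that include 0. For tags these stood at -0.46, 0.21 and -0.24, so Lsm10 and Cdk2 changed sign. The lowest were Cstf2, a cleavage factor gene, at -0.45 (-0.82 to -0.08), Cdc25a, a phosphatase gene that activates Cdk2, at -0.37 (-0.59 to -0.15), Slbp, whose product binds the stem-loop, at -0.26 and Hinfp, the H4 promoter factor, at -0.23. For tags these stood at -0.24, -0.06, -0.08 and 0.30, so Hinfp changed sign. Npat, the coordinator of histone transcription, had 308 and 207 tags and a ratio of -0.05.

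Replacement histone genes, which are expressed outside S phase, were marked in both genotypes at 11 of 11, beside 67.3% of all protein-coding genes. The 11 include H1f0 and H1f10, which are also among the members above. Their 7 pairs had a median of -0.02. The highest, beside H1f10, were Macroh2a2 at 0.20 and H2az1 at 0.08 (0.10 for both on tags), and the lowest Macroh2a1 at -0.51 (-0.68 to -0.34), H3f3b, a replacement H3 gene, at -0.44 (-0.70 to -0.19), and H2ax, of the DNA damage response, at -0.05. On tags H3f3b stood at -0.29 and H2ax at 0.04. Macroh2a1 had 598 and 538 tags, and its ratio for tags was 0.33, so the direction depended on the measure.

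Proliferation genes were marked in both genotypes at 24 of 24, beside 67.3% of all protein-coding genes. Of their 21 pairs 14 lay below 0, with a median of -0.19. Plk1, a mitotic kinase gene, stood at -0.40 (-0.62 to -0.18), the helicase subunit gene Mcm5 at -0.37 (-0.71 to -0.04), the kinase gene Aurka at -0.36 (-0.67 to -0.05) and Mki67, which encodes the Ki-67 antigen, at -0.30 (-0.54 to -0.06). For tags the same genes stood at -0.01, -0.20, 0.05 and 0.00. The highest were Mcm6 at 0.25, Mcm3 at 0.19, Rrm1, a ribonucleotide reductase gene, at 0.07 and Tk1 at 0.05, all with intervals that include 0. On tags these stood at 0.15, 0.13, -0.05 and -0.05.

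The libraries held 29681491 (H3K4me3, wild type), 26748289 (H3K4me3, knockout), 27727997 and 28586946 (H3K9me3) tags after duplicate removal, and peaks took 17.8%, 14.0%, 1.69% and 1.62% of them. Over all protein-coding genes, 67.3% had H3K4me3 in both genotypes, 2.93% by a wild-type peak alone and 1.43% by a knockout peak alone. The macrophage markers had H3K4me3 in both genotypes at 10 of 10, with 4028 and 2877 summed tags. Mesothelial and fibroblast markers were marked in both at 4 of 9, with 1532 and 930 tags summed over the whole list, no peak at Msln or Dcn, and a wild-type peak alone at Upk3b, Krt19 and Col1a2. Of the B cell markers, Cd79a had 354 and 256 tags, Pax5 242 and 170 and Ebf1 88 and 47, and Cd79b and Ms4a1 had no peak in either genotype. T and NK cell markers were marked at 3 of 8, with 575 and 450 tags and none at Cd3e, Cd3g, Cd8a, Ncr1 or Klrb1c. Granulocyte and mast cell markers were marked in both at 2 of 12, with 302 and 353 tags over the whole list, 1 by a wild-type peak alone (Mpo) and 2 by a knockout peak alone (S100a8 and Camp). The part of other cells in the values at histone genes was not tested.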

How the data were processed

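H3K4me3 and H3K9me3 ChIP-seq was analysed in wild-type and Sun-/- macrophages, with groups taken from the labels. The submitters' processing notes name the build mm10, MACS 1.4.2 and DiffBind, along with Bowtie 0.12.8 and CASAVA 1.4, in no order and with no roles. Peaks were called per library with a p-value limit of 1e-05, per the file headers. H3K4me3 knockout tags had 49 bp and those of the other libraries 50 bp, per the file headers. Each deposited peak has a tag count, a score and a fold enrichment, a linear ratio over the caller's background. The score is the negative log10 p-value multiplied by a constant, so that the limit of 1e-05 is a score of 50. Scores little above 50 therefore lie close to the limit for calling a peak. Score and fold are the authors' values and were used only within a list.

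Genes came from RefSeq GRCm38.p6, the same assembly as mm10. A pair was a wild-type and a knockout peak that overlapped no other peak and shared at least 50% of both lengths, with at least 50 tags in 1 library. Ratios have exact conditional binomial intervals, after centring on the median pair (-0.34 for log2 tags per kb, -0.48 for log2 tags). Divergent starts lay at most 500 bp apart. The computation was tested on simulated data: with 100 peaks raised 4-fold and 100 lowered 4-fold, 100 and 100 were recovered, with 0 false calls among 14488 pairs, and all of 80 built gaps were called. The simulated peaks kept wild-type positions and widths, and the gaps were built without noise. The check therefore covers the computation alone, not differences in peak width between libraries. Scripts ran in Python 3.11.15 with scipy 1.17.1, pandas 2.3.3, numpy 2.4.6 and, for plots, matplotlib 3.10.9.

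The members and lists were chosen with earlier results of these data known. Named genes were, per cluster, the 3 with most wild-type tags, the 3 highest and 3 lowest paired ratios, members marked in 1 genotype or neither or by H3K9me3, and up to 4 extremes per list. Genes named in the accounts of sequences, gaps, split peaks, peaks without a counterpart, H2A and H2B partners, neighbouring genes, H4c12 and Npat were chosen after their values were seen. Alternatives are given in the closing section. One marker gene is not reported here.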

Additional observations from a re-analysis of the deposited data

How the results depend on the processing

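Alternatives to the start distance, score and flank of the divergent gaps and to the peaks behind the family densities were chosen after seeing the data. The count of members with H3K4me3 in both genotypes stayed between 65 and 72. Members marked in the wild type alone went from 0 to 3 with a score of at least 100. Where the peak had to overlap the gene body they became 1, H4c17. Those in the knockout alone went from 1 to 0 with a window of 2500 bp. For H3K9me3 the members marked in both, by a wild-type peak alone and by a knockout peak alone were each 1. They became 0, 0 and 0 with a score of at least 100. The knockout count became 0 with overlap of the gene body and with current symbols alone, the wild-type count 2 with a window of 2500 bp, and peaks overlapping no H3K4me3 peak left 0 in both and 0 in the knockout alone. The median ratio of -0.05 became -0.23 with scaling to filtered tags, where the median of all pairs was -0.19, and -0.13 with scaling to library totals, where it was -0.09. It was -0.10 for tags per peak, -0.12 with 80% reciprocal overlap (31 pairs) and 0.011 where both peaks had a score of at least 100. No alternative brought a member pair past 2-fold. The tag ratio of chr13 was -0.46 with scaling to filtered tags, -0.36 with library totals, -0.23 with a score of at least 100, and changed sign to 0.011 as tags per kb of covered length. That of chr3 was -0.53 and -0.42 with these scalings and changed sign to 0.15 per kb, and that of chr11 was -0.52 and -0.41. The median width of 1003 bp was 802 bp in the knockout library and 1119 bp with each gene taken once, and the density of 143 tags per kb was 113 and 151. The number of gapped pairs stayed at 8 in the wild type, and went from 7 to 5 (of 7 pairs) in the knockout with a score of at least 100. The difference between H3 and H4 densities kept its direction in every alternative. For peaks left out or split under a stricter score the construction reduces the peaks counted; the cause of the other changes was not tested. No paired analysis was possible because each group has 1 library. Depth limits single pairs: most of the 51 intervals include 0.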
